A study of Arabidopsis thaliana with 6 samples.

Results

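Class III peroxidases were followed as 60 listed genes, each found by its gene identifier in the 6 count tables, among 30424 genes in all. The list was chosen with earlier results of these data known, so its shares are set beside those of all genes as a description only. The tables come from RNA-seq of the dissected root meristematic zone of Arabidopsis thaliana. There were 3 RGF1 libraries, from seedlings held for 1 h in liquid medium with 100 nM RGF1 peptide, and 3 Mock libraries, from seedlings held for 1 h with water. All 6 came from Col-0 seedlings homozygous for an introduced HYP2-GFP transgene, 6 days old, and each RNA sample pooled 20 root sections cut by the GFP signal. The promoter that drives HYP2-GFP is not given in the sources used here, and no label says whether the samples of a group were grown apart. The p-values therefore rest on sample-to-sample spread that could be technical.

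Class III peroxidases are secreted haem enzymes of plants. In the cell wall they use hydrogen peroxide to oxidise monolignols, extensins and other phenolics, which stiffens the wall, and in another cycle they produce reactive oxygen species, which loosens it. In the root they are known for the lignin of the Casparian strip and of xylem vessels, for root hair growth, and as targets of the transcription factor UPB1, which acts on the balance of superoxide and hydrogen peroxide at the border of the meristem. RGF1 is a secreted sulfated peptide that maintains the root meristem, and the series title links it to meristem size through reactive oxygen species.

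Total counts ranged from 5421243 to 9495012 per library. Among markers of the tissue, the radial patterning genes SCR and SHR averaged 131 and 50.9 CPM in RGF1 libraries and 129 and 56.9 CPM in Mock libraries (CPM, read counts scaled to library size with edgeR's TMM factors). The stem cell factors PLT1 and PLT2 averaged 10.3 and 21.7 CPM in RGF1 libraries and 13.0 and 9.23 CPM in Mock libraries, and the mitotic cyclin CYCB1;1 averaged 13.7 CPM in RGF1 libraries and 22.8 CPM in Mock libraries. None of these was called, and PLT2 had an unadjusted edgeR p of 0.0285. The quiescent centre marker WOX5 had 0 counts in the RGF1 libraries and 2 in the Mock libraries. Markers of other cell types were also counted, unevenly between libraries: the summed level of 7 root hair markers was 41.4 to 59.2 CPM in RGF1 libraries and 24.15 to 84.8 CPM in Mock libraries. The 7 endodermal markers summed to 15.3 to 20.0 CPM in RGF1 libraries and 9.10 to 67.3 CPM in Mock libraries, with Mock replicate 1 highest. Few genes made up most of these sums in Mock replicate 3, where RHD6, COBL9 and MYB36 had 14.1, 8.625 and 8.94 CPM. In that library EXPA7, EXPA18, RSL4 and PRP3 of the root hair markers had 0 counts, as had CASP1 to CASP4 and ESB1 of the endodermal ones. The 4 root cap markers summed to 6.97 to 19.5 CPM in RGF1 libraries and 5.04 to 23.8 CPM in Mock libraries. In bulk sections, fewer cells of a type and less RNA per cell cannot be told apart.

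Of the 60 genes, 36 passed the expression filter of edgeR and were tested among 16737 genes. The other 24 were not tested, and 7 of these had 0 counts in the 6 libraries: AT1G24110, AT1G49570, AT1G68850, AT3G50990, AT5G05340 (PRX52), AT5G06720 (PA2) and AT5G19890. The p-values of edgeR's quasi-likelihood test were adjusted by the Benjamini-Hochberg method over all tested genes, with calls made under 0.05. By this rule 2 peroxidase genes rose and 0 fell, where 0.466% of all tested genes were called higher and 0.0299% lower. Of these 2, AT4G08780 had 0 Mock counts and passed the filter through its RGF1 libraries alone, so it could only rise. With the replicate number as a block 4 peroxidase genes rose and 1 fell, where 1.24% of all tested genes were called higher and 0.562% lower. DESeq2 called 5 higher and 0 lower (1.23% and 0.425% of the genes it tested), and limma voom called 1 higher and 0 lower (0.388% and 0.0239%). At an unadjusted edgeR p under 0.05, 7 were higher and 4 lower, where 4.26% of all tested genes were higher and 3.5% lower.

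The sequences of AT4G08780 and AT4G08770, neighbours on opposite strands, are shown because some reads of genes so alike could be misassigned. AT1G05240 and AT1G05250, treated below, were the only pair at 95% identity or more over at least 100 bases. For AT4G08780 and AT4G08770 the likeness was lower. The coding sequences of these 2 genes, 1041 bases each, were 93.8% identical with 65 mismatches. The longest run without a difference was 101 bases, and 10.6% of 50-base windows held none. A 90-base stretch of exon 3 (coding positions 478 to 567, TAIR10.1) is shown with its 10 differences in capitals, at chr4:5607559-5607648 on the plus strand for AT4G08780 and at chr4:5598840-5598929 on the minus strand for AT4G08770.
AT4G08780: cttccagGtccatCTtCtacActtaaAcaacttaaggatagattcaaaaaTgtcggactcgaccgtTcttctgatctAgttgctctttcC
AT4G08770: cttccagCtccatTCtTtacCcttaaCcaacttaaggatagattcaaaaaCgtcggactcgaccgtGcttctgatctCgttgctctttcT

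The promoters of both genes, taken as the 250 bases before the annotated start in RefSeq's TAIR10.1 annotation, are shown because both genes had every RGF1 library above every Mock library and the promoters share sequence. Capitals mark every base that lies in an exact match of at least 12 bases to the other promoter, so that adjoining matches merge. The AT4G08780 promoter lies at chr4:5603855-5604104 on the plus strand and the AT4G08770 promoter at chr4:5600399-5600648 on the minus strand. They cover 75 bases of the AT4G08780 promoter and 72 of the AT4G08770 promoter, and the longest exact match was 31 bases.
AT4G08780: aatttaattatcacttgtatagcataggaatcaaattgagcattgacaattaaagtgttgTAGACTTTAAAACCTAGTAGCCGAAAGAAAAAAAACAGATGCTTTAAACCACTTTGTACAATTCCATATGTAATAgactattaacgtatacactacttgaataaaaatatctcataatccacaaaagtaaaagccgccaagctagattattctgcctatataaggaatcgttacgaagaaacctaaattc
AT4G08770: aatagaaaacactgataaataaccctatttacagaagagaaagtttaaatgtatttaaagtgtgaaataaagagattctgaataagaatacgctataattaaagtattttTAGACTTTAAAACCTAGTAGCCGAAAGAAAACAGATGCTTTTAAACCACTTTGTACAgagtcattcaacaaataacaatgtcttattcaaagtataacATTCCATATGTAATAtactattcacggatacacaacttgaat

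A further 4 promoters are shown because they hold a W-box and their genes had every RGF1 library above every Mock library, with a Mock mean of at most 2.39 CPM. Capitals mark the W-box, the binding motif of WRKY factors, searched as TTGACC and TTGACT on both strands. It was found in 28.4% of all protein-coding promoters, and these 4 were picked by motif and values. The AT5G06730 promoter also held it and is not shown, as that gene had a Mock mean of 3.37 CPM. AT4G36430 (chr4:17206034-17206283, minus strand) held 2 matches, AT5G39580 (chr5:15849142-15849391, minus strand) held 1, AT5G64120 (chr5:25661008-25661257, minus strand) held 3 and AT5G67400 (chr5:26894528-26894777, plus strand) held 2.
AT4G36430: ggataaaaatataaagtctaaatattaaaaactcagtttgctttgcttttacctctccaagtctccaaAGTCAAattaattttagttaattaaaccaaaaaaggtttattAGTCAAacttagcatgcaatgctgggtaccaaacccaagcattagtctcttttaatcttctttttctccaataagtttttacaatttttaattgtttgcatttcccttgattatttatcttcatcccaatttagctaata
AT5G39580: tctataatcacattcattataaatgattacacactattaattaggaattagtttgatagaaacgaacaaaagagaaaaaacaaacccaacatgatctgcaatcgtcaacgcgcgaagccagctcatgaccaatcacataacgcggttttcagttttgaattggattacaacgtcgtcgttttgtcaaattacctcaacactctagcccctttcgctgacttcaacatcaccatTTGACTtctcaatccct
AT5G64120: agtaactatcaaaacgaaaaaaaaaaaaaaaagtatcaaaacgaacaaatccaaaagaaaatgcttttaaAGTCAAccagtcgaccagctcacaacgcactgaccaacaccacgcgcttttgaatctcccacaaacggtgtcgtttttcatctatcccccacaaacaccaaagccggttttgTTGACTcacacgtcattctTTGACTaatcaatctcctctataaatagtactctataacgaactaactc
AT5G67400: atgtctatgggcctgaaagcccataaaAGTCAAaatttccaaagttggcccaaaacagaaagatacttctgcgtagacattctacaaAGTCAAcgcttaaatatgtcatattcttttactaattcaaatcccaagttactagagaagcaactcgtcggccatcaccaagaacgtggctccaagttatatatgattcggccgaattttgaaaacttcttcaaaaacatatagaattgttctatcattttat

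Few genes dominated the listed peroxidases in the mock-treated meristem. Levels between genes were compared as TPM, counts per kilobase of the longest annotated transcript, scaled to the same sum in each library. The 5 genes highest in Mock held 73.8% of the summed TPM of the 60 genes in RGF1 libraries and 75.9% in Mock libraries. AT4G30170 was first in both groups, at 920 ± 483 TPM in RGF1 libraries and 1688 ± 969.7 TPM in Mock libraries (SD, n = 3). AT4G21960 (PRXR1) followed at 814 ± 120 TPM in RGF1 libraries and 906 ± 76.4 TPM in Mock libraries (SD, n = 3). These levels overlap within their spread, so the order of the first pair is not settled by 3 libraries. AT4G08770 (Prx37) was at rank 3 in RGF1 libraries with 587 ± 160 TPM and at rank 4 in Mock libraries with 337 ± 33.8 TPM (SD, n = 3). AT1G05260 (RCI3), a cold-inducible peroxidase, was at rank 4 in RGF1 libraries with 204 ± 97.9 TPM and at rank 3 in Mock libraries with 340 ± 27.8 TPM (SD, n = 3), within the spread of AT4G08770 in Mock. AT3G01190 was at rank 9 in RGF1 libraries with 86.5 ± 68.1 TPM and at rank 5 in Mock libraries with 257 ± 249.7 TPM (SD, n = 3). Over the 60 genes the summed level was 4392, 4004 and 2225 TPM in RGF1 replicates 1 to 3 and 6658, 4274 and 3020 TPM in Mock replicates 1 to 3, and the groups overlapped.

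The 60 genes were divided by their Mock counts: 20 were near 0 (at most 10 counts over the 3 Mock libraries), 21 were root-expressed (a mean of at least 5 CPM in Mock) and 19 were low, in between. Because this division uses Mock values, a gene near 0 had little room to fall and a root-expressed gene had much, so the directions within the classes are given as a description. AT4G08780 and AT4G36430 were the 2 near-0 genes that all 3 RGF1 libraries detected.

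AT4G08780 (chromosome 4, 5604105 to 5608290, 4 exons) rose, from no reads in Mock. It had 574, 57 and 78 counts in RGF1 replicates 1 to 3, which is 59.8, 8.37 and 14.7 CPM, and 0 counts in each Mock library. The groups did not overlap, and RGF1 replicate 1 was more than the other RGF1 libraries together. Of the 20 near-0 genes it was the only 1 tested, as its RGF1 libraries alone passed it through the expression filter. Against a floor of 3 counts per Mock library the mean in RGF1 was at least 73.5-fold higher, with an edgeR adjusted p of 0.00445, and without RGF1 replicate 1 the bound was 30.7-fold. The call held with the replicate block (edgeR adjusted p = 0.000347) and with DESeq2 (adjusted p = 2.33e-06). It was lost in limma voom (adjusted p = 0.127).

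Its neighbour AT4G08770 (Prx37, chromosome 4, 5598037 to 5600398), a peroxidase known from vascular tissue, was expressed throughout. It had 616, 424 and 444 CPM in RGF1 replicates 1 to 3 and 292.5, 268 and 289 CPM in Mock replicates 1 to 3. The groups did not overlap, and the Mock libraries lay close together. The log2 fold change was 0.81 ± 0.24 (SE), which was not called (edgeR adjusted p = 0.261). With the replicate block the gene rose (log2 fold change 0.79, edgeR adjusted p = 0.0188). Of the reads assigned to either gene, AT4G08780 took 8.84% (exact Clopper-Pearson 95% interval 8.16 to 9.56), 1.94% (1.47 to 2.50) and 3.20% (2.54 to 3.98) in RGF1 replicates 1 to 3. In the Mock libraries it took 0 of 2730, 2392 and 1843 reads, for which the upper bounds of the same exact intervals are 0.135%, 0.154% and 0.200%. The part of misassigned reads was not tested. Counting intervals and floors cover counting error only, since the amplified cDNA carries no molecular identifiers. The last 143 bases of AT4G08780 overlap AT4G08790 on the opposite strand, which had 15.4, 9.98 and 10.4 CPM in RGF1 replicates 1 to 3 and 4.29, 7.95 and 10.2 CPM in Mock replicates 1 to 3, and its part in the counts was not tested.

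AT4G36430 (chromosome 4, 17204385 to 17206033), with 2 W-box matches in the promoter above, was the other near-0 gene detected in all 3 RGF1 libraries. It had 157, 92 and 5 counts in RGF1 replicates 1 to 3, which is 16.4, 13.5 and 0.942 CPM, and 0 counts in each Mock library. RGF1 replicate 3 was far below the other RGF1 libraries and close to the floor of 3 counts, 0.565 CPM in that library. The mean was at least 27.3-fold above the Mock floor, and the bound without RGF1 replicate 1 was 19.2-fold. The expression filter, which here needed 1.25 unscaled CPM in at least 3 libraries, left it untested in the main comparison, since RGF1 replicate 3 had 0.922. Without that filter it was called higher (edgeR adjusted p = 0.000181), as it was among genes with a mean count of at least 10 (edgeR adjusted p = 0.0366) and in DESeq2 (adjusted p = 1.52e-06). It was tested again whenever a Mock library was left out, and was then not called (edgeR adjusted p of 0.0568, 0.122 and 0.0707). Without RGF1 replicate 3 it was called (edgeR adjusted p = 0.00868). With 0 Mock counts, AT4G36430 entered each of these fits through its RGF1 libraries alone, so it could only rise.

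The other 18 near-0 genes had few counts in either group: 7 had no counts, and the other 11 had at most 19 counts over the RGF1 libraries and at most 6 over the Mock libraries. They include AT3G49120 (PRXCB, PRX34), which with AT3G49110 (PRXCA, PRX33) produces hydrogen peroxide in immune responses. AT3G49120 had 13, 0 and 6 counts in RGF1 replicates 1 to 3 and 0, 3 and 2 counts in Mock replicates 1 to 3. AT3G49110, of the low class, had 22, 0 and 10 counts in RGF1 replicates 1 to 3 and 0, 0 and 59 in Mock replicates 1 to 3. Neither gene was called, and the libraries overlapped. The root hair gene AT5G22410 (RHS18) had 0, 5 and 8 counts in RGF1 replicates 1 to 3 and 4, 1 and 0 counts in Mock replicates 1 to 3. AT2G41480 (PRX25), a lignin-related peroxidase, had 3 counts, all in RGF1 replicate 3.

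**Figure D1:**
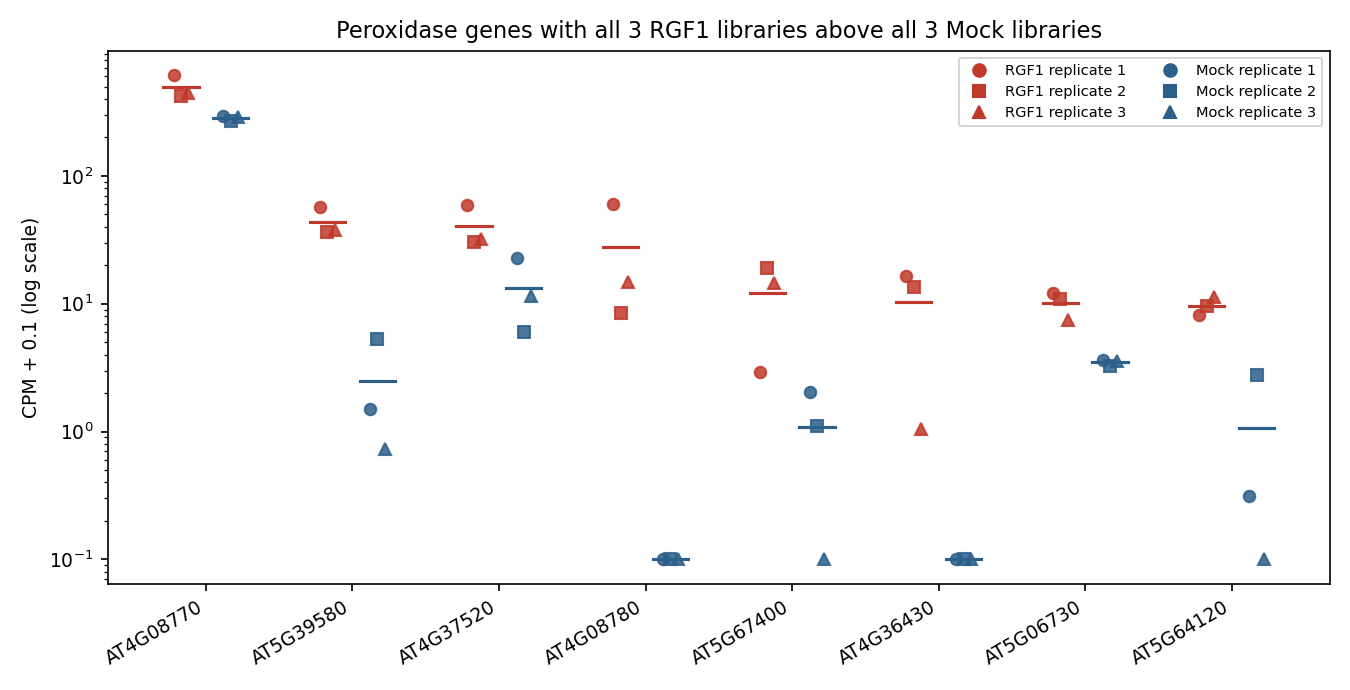
Expression (CPM + 0.1, log axis) of the 8 peroxidase genes whose 3 RGF1 libraries lay above their 3 Mock libraries; points are libraries, RGF1 in red left of Mock in blue, shapes give the replicate number, and horizontal lines are arithmetic means. AT4G08780 and AT4G36430 sit at 0 in Mock, AT4G08770 is high in both groups, and single RGF1 libraries stand low for AT4G36430 (replicate 3) and AT5G67400 (replicate 1).

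Among the low class, which held 14 tested genes, AT5G39580 (chromosome 5, 15847065 to 15849141), linked to root hair growth, rose. It had 57.5, 36.4 and 37.7 CPM in RGF1 replicates 1 to 3 and 1.39, 5.15 and 0.627 CPM in Mock replicates 1 to 3. The lowest RGF1 library was several times the highest Mock library. The log2 fold change was 4.16 ± 0.63 (SE), 17.9-fold (edgeR adjusted p = 0.00741), and was called in limma voom (adjusted p = 0.0249), DESeq2 (adjusted p = 1.70e-10) and with the replicate block (edgeR adjusted p = 0.00168). Without RGF1 replicate 1 it was not called (log2 fold change 3.92, edgeR adjusted p = 0.0646).

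Another 3 low genes lay higher in each RGF1 library without being called. AT5G64120 (PRX71, chromosome 5, 25659257 to 25661007), which strengthens the wall of growing organs, had 8.02, 9.54 and 11.1 CPM in RGF1 replicates 1 to 3 and 0.214, 2.69 and 0 CPM in Mock replicates 1 to 3. The RGF1 libraries lay close together, and most of the Mock counts were in replicate 2. Its log2 fold change was 3.25 ± 1.08 (SE; edgeR adjusted p = 0.368), and without Mock replicate 2 it was 6.12 (edgeR adjusted p = 0.0650). DESeq2 called it (adjusted p = 0.0436).

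AT5G67400 (RHS19, chromosome 5, 26894778 to 26896488), a root hair peroxidase, had 2.81, 19.1 and 14.3 CPM in RGF1 replicates 1 to 3 and 1.93, 1.01 and 0 CPM in Mock replicates 1 to 3. RGF1 replicate 1 was barely above the highest Mock library. The log2 fold change was 3.55 ± 1.03 (SE; edgeR adjusted p = 0.245), and the gene was called in DESeq2 (adjusted p = 0.00777) and without the low-count filter (edgeR adjusted p = 0.0414). AT5G06730 (chromosome 5, 2079925 to 2081685) had 12.1, 10.9 and 7.35 CPM in RGF1 replicates 1 to 3 and 3.54, 3.13 and 3.45 CPM in Mock replicates 1 to 3. Its Mock libraries were nearly equal, and the log2 fold change was 1.58 ± 0.60 (SE; edgeR adjusted p = 0.483).

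Among the 21 root-expressed genes, which were all tested, 16 had a negative and 5 a positive log2 fold change, with a median of -0.62, against -0.01 over all tested genes. None was called in edgeR without the block, in limma voom or in DESeq2, and 2 were higher and 4 lower at an unadjusted edgeR p under 0.05. When genes were chosen by a mean of at least 5 CPM over the 6 libraries instead, 15 of the 26 tested were negative and the median was -0.26. Without Mock replicate 1, 14 of the 21 were negative and the median was -0.27. With the block and without replicate 1 of both groups, 12 were negative.

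AT4G30170 (chromosome 4, 14762819 to 14764636), first by mean TPM in both groups, fell with the replicate block. It had 846, 899.9 and 290 CPM in RGF1 replicates 1 to 3 and 1889, 1081 and 686 CPM in Mock replicates 1 to 3. The groups overlapped, but at each replicate number the RGF1 library was the lower one. With the block the log2 fold change was -0.89 (edgeR adjusted p = 0.0237), and without it -0.84 ± 0.42 (SE; edgeR adjusted p = 0.683). The block call was lost without replicate number 1 (edgeR adjusted p = 0.0702) or 3 (0.227).

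AT4G37520 (chromosome 4, 17631500 to 17633249) went the other way among the root-expressed genes. It had 58.7, 30.1 and 31.8 CPM in RGF1 replicates 1 to 3 and 22.6, 5.93 and 11.3 CPM in Mock replicates 1 to 3. The groups did not overlap, and the log2 fold change was 1.60 ± 0.48 (SE; edgeR adjusted p = 0.285). With the block the gene rose (log2 fold change 1.72, edgeR adjusted p = 0.0244). That call was lost whichever replicate number was left out, as was that of AT4G08770 without replicate number 1 or 3.

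By replicate number, 9 root-expressed genes were lower in RGF1 at all 3 numbers and 3 were higher at all 3, AT4G08770, AT4G37520 and AT1G71695. Of all tested genes with a mean of at least 5 CPM in Mock, 19% were lower and 16.9% higher at all 3 numbers. Of the 9, AT1G05260, AT3G28200, AT3G32980 and AT4G11290 had every RGF1 library below every Mock library. Over the 36 tested genes the RGF1 libraries lay above the Mock libraries in 7 (19.4%) and below in 4 (11.1%), where 7.3% and 6.18% of all tested genes did so. AT3G32980 had 97.6, 80.7 and 69.1 CPM in RGF1 replicates 1 to 3 and 148, 125 and 126 CPM in Mock replicates 1 to 3. Its log2 fold change was -0.69 ± 0.25 (SE), with an unadjusted edgeR p of 0.0153 and an adjusted p of 0.430. AT2G18980 had 60.5, 48.7 and 36.2 CPM in RGF1 replicates 1 to 3 and 131, 59.9 and 57.1 CPM in Mock replicates 1 to 3, overlapping in 1 library, with an unadjusted edgeR p of 0.0493. AT3G28200, separated by a small margin, had 19.5, 19.1 and 12.2 CPM in RGF1 replicates 1 to 3 and 20.5, 23.4 and 19.6 CPM in Mock replicates 1 to 3.

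**Figure D2:**
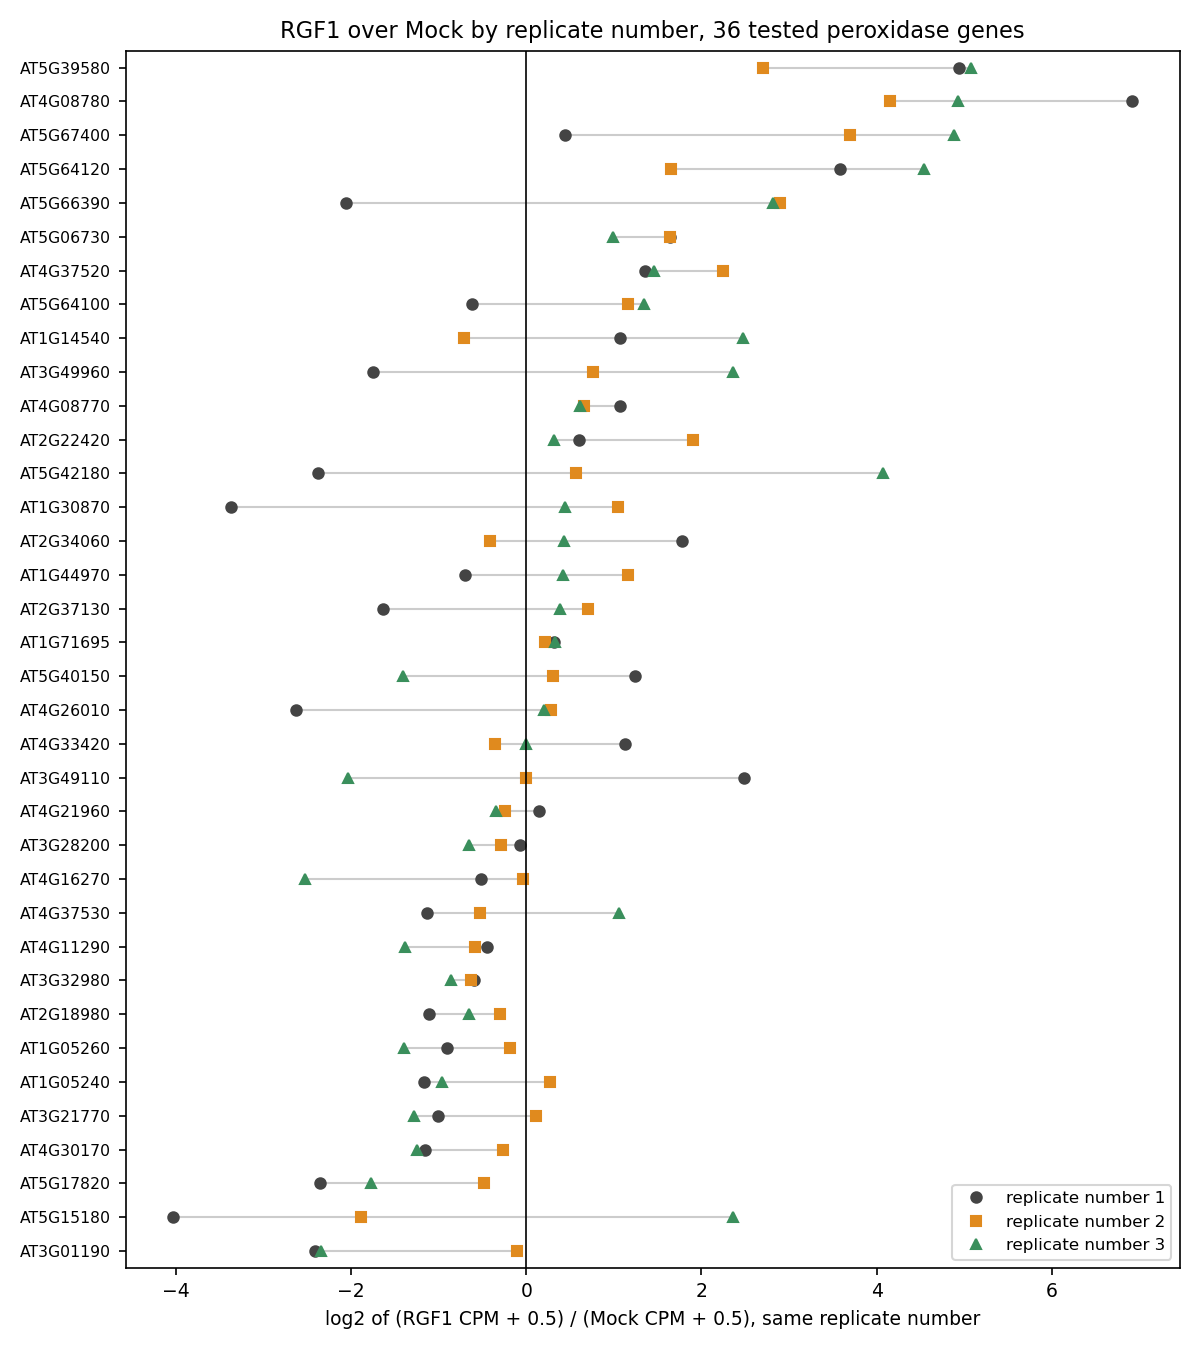
RGF1 over Mock at the same replicate number, as log2 of the ratio of CPM + 0.5, for the 36 tested peroxidase genes in order of the median; colour and shape give the replicate number and grey lines join the 3 values. AT5G39580, AT4G08780, AT5G67400 and AT5G64120 lie to the right at all 3 numbers, AT3G01190, AT5G17820 and AT4G30170 to the left at all 3; the median over the 36 genes was -0.56, 0.24 and 0.35 at numbers 1 to 3.

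The 5 peroxidases required for lignin of the Casparian strip, the endodermal barrier, were AT5G42180 (PER64), AT1G05260 (RCI3), AT1G44970, AT4G11290 and AT5G66390 (PRX72). None was called, and 2 were lower at an unadjusted edgeR p under 0.05. RCI3 had 128, 238 and 97.6 CPM in RGF1 replicates 1 to 3 and 241, 270.5 and 258 CPM in Mock replicates 1 to 3. AT4G11290 had 138, 137 and 72.5 CPM in RGF1 replicates 1 to 3 and 189, 205 and 189 CPM in Mock replicates 1 to 3. Both had tight Mock values and lower, wider RGF1 values, with log2 fold changes of -0.73 ± 0.31 and -0.75 ± 0.28 (SE; edgeR adjusted p of 0.577 and 0.466). PER64 had 1.35, 4.40 and 7.91 CPM in RGF1 replicates 1 to 3 and 9.11, 2.80 and 0 CPM in Mock replicates 1 to 3. PRX72 had 2.81, 3.23 and 3.01 CPM in RGF1 replicates 1 to 3 and 13.3, 0 and 0 CPM in Mock replicates 1 to 3, so that all its Mock counts were in replicate 1. AT1G44970 had 4.38, 3.38 and 0.377 CPM in RGF1 replicates 1 to 3 and 7.39, 1.23 and 0.157 CPM in Mock replicates 1 to 3, with replicate 1 highest in both groups. The summed endodermal markers were also highest in Mock replicate 1, at 67.3 CPM against 14.2 and 9.10 CPM in the other Mock libraries, with CASP2, CASP4 and CASP5 at 57, 118 and 101 counts there. The part of these cells in the result was not tested.

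The peroxidases known to be repressed by UPB1, AT4G11290, AT4G16270 and AT5G17820, were each lower in RGF1 at all 3 replicate numbers, and 0 of the 3 were called by edgeR with or without the block, by DESeq2 or by limma voom. AT5G17820 had 23.1, 42.9 and 4.14 CPM in RGF1 replicates 1 to 3 and 120, 59.9 and 15.4 CPM in Mock replicates 1 to 3. AT4G16270, which with AT1G44970 cross-links extensins in the anther tapetum, had 18.4, 33.6 and 3.77 CPM in RGF1 replicates 1 to 3 and 26.6, 34.6 and 24.15 CPM in Mock replicates 1 to 3. RGF1 replicate 3 was the lowest library for both genes. Their log2 fold changes were -1.48 ± 0.71 and -0.61 ± 0.57 (SE; edgeR adjusted p of 0.660 and 0.883). UPB1 itself had 19.7, 13.4 and 5.65 CPM in RGF1 replicates 1 to 3 and 37.6, 11.98 and 24.5 CPM in Mock replicates 1 to 3 (edgeR adjusted p = 0.738).

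Of 6 peroxidases linked to root hairs, AT5G39580 rose, AT5G22410 was not tested and the other 4 were not called by edgeR with or without the block. RHS19, among those 4, was called in DESeq2 and without the low-count filter, as given above. RHS19 and AT5G64100 were both called higher with the block and without replicate number 1. AT5G64100 had 127, 126 and 25.4 CPM in RGF1 replicates 1 to 3 and 196, 56.4 and 9.72 CPM in Mock replicates 1 to 3, with replicate 3 lowest in both groups. AT4G26010 had 1.15, 5.43 and 6.03 CPM in RGF1 replicates 1 to 3 and 9.64, 4.365 and 5.175 CPM in Mock replicates 1 to 3. None of the 7 root hair markers was called by edgeR with or without the block, by DESeq2 or by limma voom. Of these markers 3 had positive and 4 negative log2 fold changes, with a median of -0.18.

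Of 10 peroxidases linked to lignin and vessels, 6 were tested, 5 of them had positive log2 fold changes and 0 were called by edgeR with or without the block. Among them PRX71 had an unadjusted edgeR p under 0.05 and was called in DESeq2, as given above. AT1G14540 (PER4) had 10.9, 3.38 and 4.90 CPM in RGF1 replicates 1 to 3 and 4.93, 5.82 and 0.470 CPM in Mock replicates 1 to 3. AT2G22420 had 6.77, 5.14 and 1.88 CPM in RGF1 replicates 1 to 3 and 4.29, 1.01 and 1.41 CPM in Mock replicates 1 to 3. The groups of both genes overlapped. The vessel peroxidases AT4G33420 and AT5G51890 had at most 18 and 9 counts in any library. The 7 xylem markers summed to 12.6, 26.6 and 17.1 CPM in RGF1 replicates 1 to 3 and 51.2, 50.5 and 33.4 CPM in Mock replicates 1 to 3, without overlap, although none was called by edgeR with or without the block, by DESeq2 or by limma voom. The xylem protease gene XCP2 gave the largest part of the sum in each library. It had 6.46, 15.6 and 12.2 CPM in RGF1 replicates 1 to 3 and 37.3, 34.4 and 19.0 CPM in Mock replicates 1 to 3. Its log2 fold change was -1.41 ± 0.44 (SE; edgeR adjusted p = 0.325). Of the 4 tested markers, XCP1 and CESA7 also had negative values, -1.97 and -1.34, and CESA4 had -0.02. VND6 and VND7 had at most 2 counts in any library. The part of xylem cells in the lower values of root-expressed peroxidases was not tested.

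Part of the spread followed the replicate number. Replicate 3 was the lowest library in both groups for 10 of the 21 root-expressed genes (47.6%), against 16.1% of all tested genes. Unlike the 21, the latter were not limited to a mean of at least 5 CPM in Mock. AT2G37130 had 116, 139 and 58.8 CPM in RGF1 replicates 1 to 3 and 362, 85.1 and 45.0 CPM in Mock replicates 1 to 3. AT3G01190 had 76.6, 122 and 11.5 CPM in RGF1 replicates 1 to 3 and 408.5, 131 and 60.5 CPM in Mock replicates 1 to 3. Replicate 1 was the highest Mock library for both, the library whose removal moved the median of the class to -0.27. AT5G15180 had the lowest log2 fold change of the class, -2.45 ± 1.31 (SE; edgeR adjusted p = 0.711), with 0.313, 0.881 and 2.07 CPM in RGF1 replicates 1 to 3 and 12.75, 4.59 and 0 CPM in Mock replicates 1 to 3. The labels name no batch behind the numbers.

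The 60 genes form 11 neighbouring pairs within 10000 bases, 7 of them tandem pairs on one strand and 4 on opposite strands. In most pairs the partners differed in level. In the tandem pair AT4G37520 and AT4G37530, whose coding sequences were 92.4% identical, the first had a log2 fold change of 1.60 and the second -0.51 ± 0.74 (SE; edgeR adjusted p = 0.939). AT4G37530 had 4.17, 5.14 and 4.14 CPM in RGF1 replicates 1 to 3 and 9.75, 7.61 and 1.725 CPM in Mock replicates 1 to 3, so its groups overlapped. The difference between the partners' changes was not tested. In the pair AT5G06720 and AT5G06730 (86.1% identical) the first had 0 counts in the 6 libraries. In the tandem run AT5G64100, AT5G64110 and AT5G64120 the middle gene had 6, 0 and 0 counts in RGF1 replicates 1 to 3 and 0, 0 and 11 counts in Mock replicates 1 to 3, while its neighbours were expressed. AT3G49110 and AT3G49120 (90.7% identical, with 1 protein-coding gene between them) and AT2G38380 and AT2G38390 (90.6% identical) stayed low. AT2G38380 and AT2G38390 had 4 and 0 counts over the RGF1 libraries and 0 and 19 over the Mock libraries. AT5G58390 and AT5G58400 (72.3% identical) had 0 counts in the RGF1 libraries and 14 and 1 in the Mock libraries, all in Mock replicate 3.

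The inverted pair AT1G05240 and AT1G05250 (PRX2) cannot be resolved in these counts. The transcript of AT1G05250 was 100% identical to AT1G05240 over its whole 1492 bases, and the annotated AT1G05240 transcript is longer, 2478 bases. AT1G05250 had 1 count over the RGF1 libraries and 1 over the Mock libraries, and AT1G05240 had 6, 9 and 3 counts in RGF1 replicates 1 to 3 and 19, 9 and 10 counts in Mock replicates 1 to 3. How the authors treated reads that match several places is not given in the sources used here, so neither level can be read as that gene's own. PER4 and AT1G14550, head to head on opposite strands, were 73.2% identical, and AT1G14550 had 6, 4 and 14 counts in RGF1 replicates 1 to 3 and 26, 0 and 5 counts in Mock replicates 1 to 3.

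**Figure D3:**
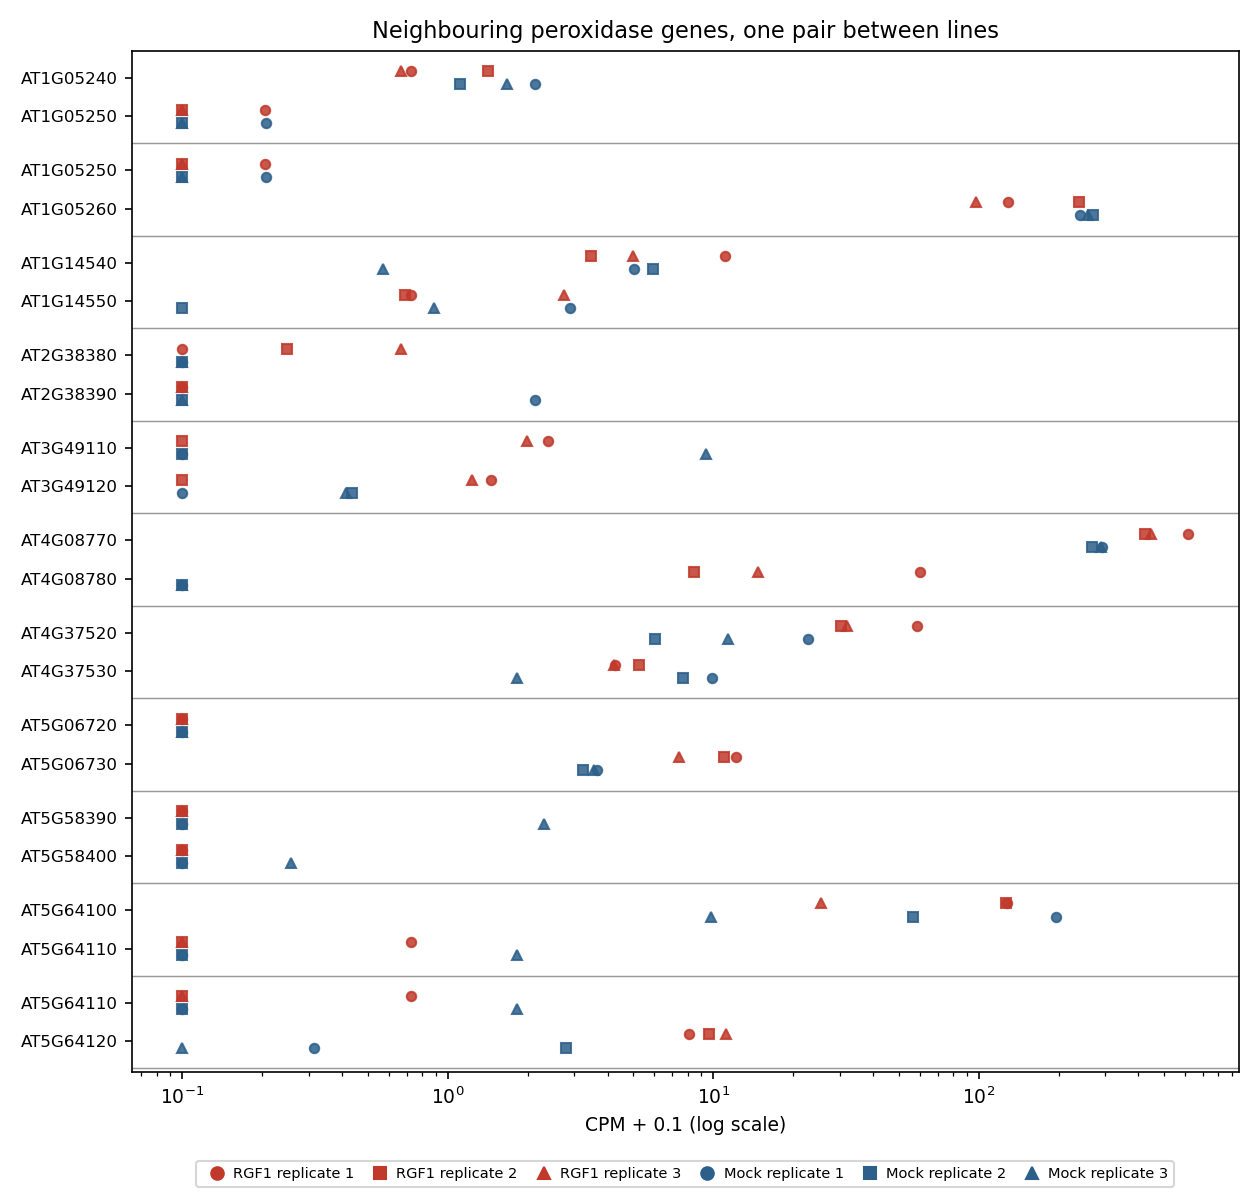
Expression (CPM + 0.1, log axis) of neighbouring peroxidase genes, with 1 pair between lines; each point is 1 library, RGF1 in red above Mock in blue, and shapes give the replicate number. In most pairs 1 partner is at or near 0, and AT4G08780 lies at 8.37 to 59.8 CPM in RGF1 libraries and at 0 in Mock libraries.

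In the 250 bases before the start, a W-box was found in 17 of the 60 genes (28.3%), against 28.4% of 27444 protein-coding genes. Of the 8 genes whose RGF1 libraries all lay above the Mock libraries, 5 held one (AT4G36430, AT5G06730, AT5G39580, AT5G64120 and AT5G67400), against 12 of the other 52 (23.1%). These 8 were picked by their values, so the shares are given without a test. The GCC-box, GCCGCC, was found in AT4G08780 and AT5G19890, 3.33% of the 60 genes against 1.87% of all promoters. The G-box, CACGTG, was found in 0 of the 60, against 6.49% of all promoters. The as-1 core, TGACG, was found in 11 (18.3%), against 18.6%, and the AC elements, ACCTACC and ACCAACC, in 2 (3.33%), against 3.79%. A match to the as-1 core cannot lie on the same TGAC as a W-box.

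Of 36 other genes of apoplastic oxidation and the wall, 28 were tested and 0 were called in edgeR. Of these 28, 2 were higher and 1 lower at an unadjusted edgeR p under 0.05, DESeq2 called 2 higher and limma voom 0. The oxidase RBOHD, which makes the superoxide that yields hydrogen peroxide for peroxidases, had 104 ± 23.1 CPM in RGF1 libraries and 41.8 ± 10.9 CPM in Mock libraries (SD, n = 3), and was called with the block (edgeR adjusted p = 0.0286). CCR2, a cinnamoyl-CoA reductase of monolignol synthesis, had 23, 16 and 40 counts in RGF1 replicates 1 to 3 and 0 in each Mock library (edgeR adjusted p = 0.0710). The 15 tested genes of monolignol synthesis had a median log2 fold change of 0.64, and the extensin-related LRX2 had -0.74 ± 0.28 (SE; edgeR adjusted p = 0.469).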

How the data were processed

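RNA-seq libraries of 3 RGF1 and 3 Mock samples were used. Per the labels' protocols, 50 ng of total RNA per sample was amplified to cDNA before library preparation. The authors deposited raw counts per gene, 1 table per library; per the submitters' processing notes, the build was TAIR10 and the tools included HTSeq, DESeq2 and TopHat2 2.1.1, with no roles or settings named, and how strand and multiply mapped reads were handled is not given in the sources used.

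RGF1 was compared with Mock over all genes in edgeR 4.0.16 (R 4.3.3): TMM scaling, default expression filter, quasi-likelihood F test, standard errors from the F statistic. Alternatives were a replicate block, DESeq2 1.42.0, limma 3.58.1 voom, other scalings and filters, and leaving out each library. The fit was tested on simulated data. Same-numbered libraries deviated together from their group means (r of 0.204, 0.239 and 0.339 over 16737 genes for numbers 1 to 3). The replicate block and the same-number comparisons therefore took the numbers as pairs, on the evidence of the data, not of the labels. The main comparison did not use the pairs.

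Positions and promoters come from RefSeq's TAIR10.1, whose nuclear positions were used for names and sequence and not joined to positions in the count tables, which have none. Identity was taken from BLAST 2.17.0 (at least 95% over at least 100 bases) and from global alignment in Biopython 1.88. Members and lists were chosen with earlier results of these data known. Genes were named if called with or without the block, at an unadjusted p under 0.05, with separated groups and a mean of at least 5 CPM, among the 5 highest, in a role group, or as a tandem partner; a few others were named after their values were seen.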

Additional observations from a re-analysis of the deposited data

How the results depend on the processing

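The number of peroxidase genes called higher, 2 in the main comparison, was 4 with the replicate block, 5 in DESeq2, 1 in limma voom, 4 without the low-count filter and 3 among genes with a mean count of at least 10. Leaving out 1 library gave 1 to 3, and the lowest count was without RGF1 replicate 1. Peroxidase genes called lower were 0 in these settings except the block, with 1. With the block and without 1 replicate number, 3 to 4 were higher and 0 to 4 lower. Without number 1 the higher ones were AT4G08780, AT5G39580, AT5G64100 and AT5G67400, and the lower one was AT4G11290 (edgeR adjusted p = 0.0486). AT5G64100 had a log2 fold change of 0.09 in the main comparison. Without number 2 the lower ones were AT1G05260, AT3G01190, AT4G30170 and AT5G17820. Over all genes, 78 higher and 5 lower became 208 and 94 with the block, 234 and 81 in DESeq2, and 176 and 46 without the low-count filter. Leaving out 1 library gave 39 to 113 higher and 1 to 5 lower, with 39 higher without RGF1 replicate 1 and 1 lower without either RGF1 replicate 1 or Mock replicate 2. With the block and without number 1, 2 or 3 there were 204, 221 and 116 higher and 60, 130 and 39 lower. The median log2 fold change of the tested peroxidase genes, -0.17, was 0.21 with the block, 0.059 in limma voom, 0.40 without Mock replicate 1 and 0.29 with the block and without number 1; over the 6 settings that left out 1 library it ranged from -0.39 to 0.40. The sign of this median therefore depended on the setting, and the cause was not tested. In the fixed pathway and marker lists, 0 genes called higher became 1 with the block, 2 in DESeq2, 2 without the low-count filter and 1 with the block and without number 2. The 13 tested peroxidase genes named for a call, an unadjusted p or separated groups had 208 values under the alternatives. Of these values, 194 kept their side of the threshold, 12 gained and 2 lost the call, and 0 changed sign. As these genes were picked by the same data, stable signs were favoured in advance. Some others reversed their log2 fold change with the block, such as AT5G66390 (-0.56 to 2.71) and AT3G49110 (-1.11 to 0.71). The block fits that leave out 1 replicate number were chosen after seeing the data.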
